A study of Mus musculus with 4 samples.

Results

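Collagens are the fibres and sheets of the extracellular matrix, and each molecule is a triple helix of chains that separate genes encode. The collagen chains examined here were all genes of the deposited table whose symbol had the form Col, a type number, the letter a and a chain number. This rule took 44 of the 34745 genes and used no measured value. They were grouped by class into 11 fibrillar chains, 6 basement membrane chains (type IV), 6 microfibrillar chains (type VI), 4 transmembrane chains, 9 fibril-associated chains and 8 other chains. The fibrillar collagens, among them types I, III and V, form the tensile fibres of connective tissue, type IV forms the sheet of basement membranes, and type VI forms beaded filaments close to cells. Transmembrane collagens stay anchored in the cell surface. Fibroblasts and other mesenchymal cells are the main makers of fibrillar collagen, whereas macrophages are better known for taking up and degrading it, although they can also transcribe some collagen genes, type VI among them.

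Total RNA of mouse macrophages was sequenced in 2 libraries of each genotype, numbered 1 and 2. The libraries labelled WT came from mice with floxed alleles of G3bp1 (G3bp1f/f) and served as the controls, and those labelled KO came from mice of the genotype G3bp1mac-/-, which carry the same floxed alleles and a Cre recombinase driven by Lyz2, a gene of myeloid cells. Per the study's text the cells were bone marrow-derived macrophages, and the labels gave neither a treatment nor the age of the mice. G3BP1 is the scaffold protein of stress granules. A Lyz2 driver is meant to delete in myeloid cells and not in stromal cells, and in which cells the allele was deleted was not tested here. The labels do not say whether the 2 libraries of a genotype came from separate mice or cultures, so the p-values measure only the spread between these samples, which may be technical.

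The libraries held between 16724241 and 19747909 counts. G3bp1 had 1691 and 2875 counts in WT but 1307 and 2296 in KO, a log2 difference of -0.61 (SE 0.40, edgeR quasi-likelihood adjusted p 0.904). The log2 ratios within the numbers were -0.57 and -0.63, so G3bp1 was lower in the KO library of each number, whereas the pooled genotypes overlapped. Counts over the whole gene do not resolve the floxed exons, and each direction of KO against WT follows the labels. All 14 macrophage markers were detected in every library, among them Lyz2 with 297591 to 383749 counts. The libraries also differed by replicate number in both genotypes, and log2 ratios of KO to WT within each number are therefore given for the chains, although such a ratio compares single libraries and has no error.

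Collagen transcripts were scarce in these cells and more abundant in the libraries labelled KO. Summed over the 44 chains, WT replicates 1 and 2 held 854 and 1130 counts, and KO replicates 1 and 2 held 4306 and 3405. On the CPM scale (counts scaled to a common, TMM-adjusted library total) this was 52.6 and 70.9 CPM in WT against 231 and 173 CPM in KO, a log2 ratio of the means of 1.71. The groups did not overlap. Counts were detected for 25 and 28 chains in WT and for 31 and 28 in KO. As the RNA came from bulk cultures, fewer or more cells of a type and less or more RNA per cell cannot be told apart.

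Of the 44 chains, 9 had 0 counts in every library. At 0 counts the level may still reach that of 3 counts, or 0.152 to 0.188 CPM depending on the library, a limit that covers counting error only. The other 35 chains had counts, and 21 of them had enough counts to be tested. Of these 21 chains, 13 had 10 or more counts in every library, whereas 6 reached 10 counts in both KO libraries and not in both WT libraries, and so could pass only through the group in which they were high. These 6 were Col4a6, Col5a1, Col6a5, Col12a1, Col15a1 and Col16a1. Counts over the tested chains are therefore descriptions of the chains that passed, not of all members. The plot of counts by chain gives each library's value for the 35 chains.

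**Figure D1:**
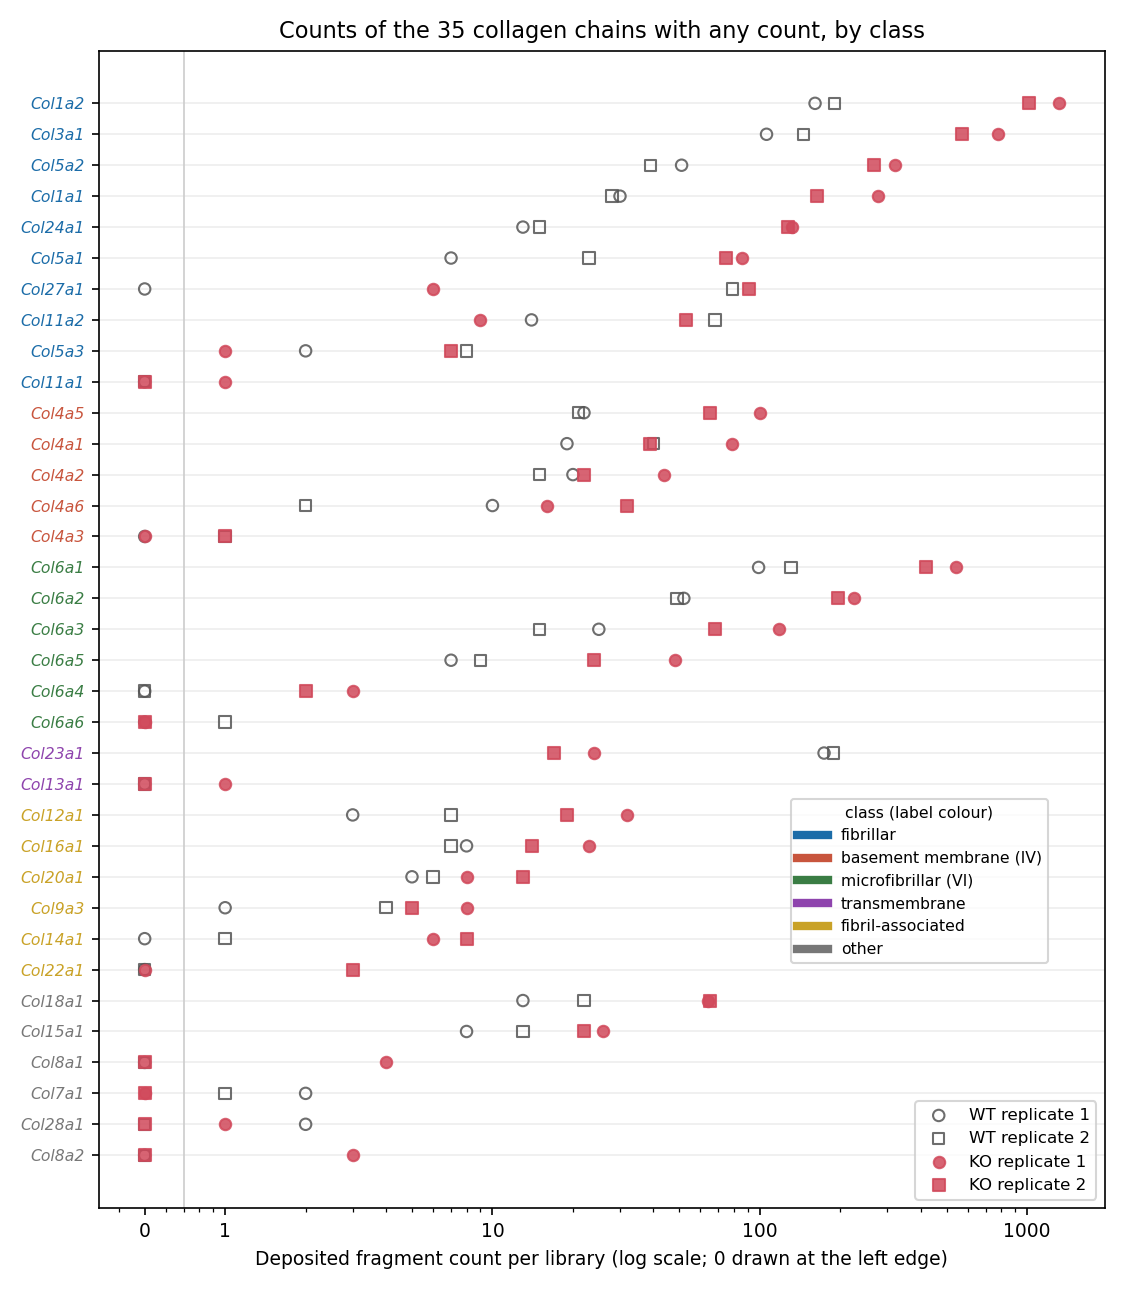
Counts of the 35 collagen chains with any count, on a log axis with 0 drawn at the left, grouped by class through the colour of the gene label. Open symbols are the WT libraries and filled symbols the KO libraries, circles are replicate 1 and squares replicate 2. The filled symbols of Col1a2 (1016 and 1317 counts) lie to the right of the open ones (161 and 190 counts), as they do for most chains with over 10 counts, and those of Col23a1 (17 and 24 counts) lie to the left (174 and 189 counts).

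The next comparison asked which chains differed between the genotypes. Differences are given as log2 values of KO over WT, so that 1 stands for a doubling. A gene was called if its adjusted p was below 0.05 and its log2 difference beyond 1 in either direction. By these limits the quasi-likelihood test of edgeR called 0 of the 21 chains, and 0 (0%) of the 12418 genes tested. At an unadjusted p under 0.05, 13 of the 21 chains were higher in KO and 1 was lower, where 4.64% of all tested genes were higher and 1.99% lower. Among the chains with 10 or more counts in every library, 10 of 13 were higher, where 356 of 11409 such genes were. Among those that could pass only through KO, 3 of 6 were higher, where 220 of 591 such genes were. For 16 chains the lower KO library lay above the higher WT library, and for 1 chain the higher KO library lay below the lower WT library, against 20.0% and 16.9% of all tested genes. The median log2 difference of the 21 chains was 1.81 (interquartile range 0.93 to 2.16), and that of all tested genes was 0.04 (-0.23 to 0.26). Within replicate number 1 the median over the chains was 2.06 and within number 2 it was 1.3, and 17 chains had a positive ratio within both numbers.

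The outcome at the adjusted threshold depended on the test, and also on whether the replicate number was a term of the fit. That alternative is given in the closing section. The edgeR exact test called 7 chains higher and 1 lower in KO, where it called 1.55% and 0.290% of all genes in these directions. The DESeq2 Wald test also called 7 higher and 1 lower, against 1.10% and 0.362% of all genes. Both tests called the same chains, which were Col1a1, Col1a2, Col3a1, Col5a2, Col24a1, Col6a1 and Col6a2 as higher and Col23a1 as lower. The 95% confidence intervals of the quasi-likelihood fit come from the same statistic as its unadjusted p and add no further evidence. They excluded 0 for the same 14 chains, 13 of them higher, as the plot of log2 differences shows. By the same criterion 4.64% of all tested genes were higher and 1.99% lower.

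**Figure D2:**
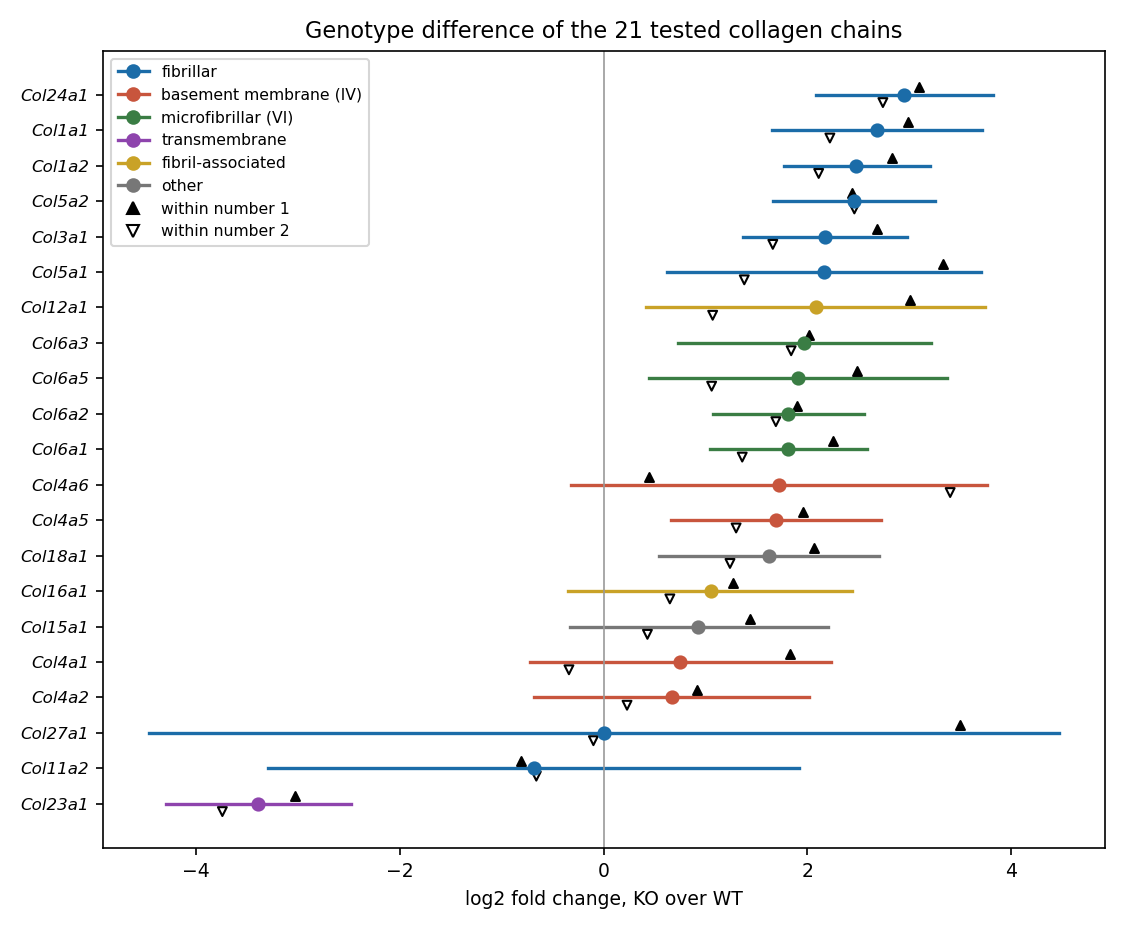
Log2 difference of KO over WT for the 21 tested collagen chains, with the 95% confidence interval of the quasi-likelihood fit as a line and the class as the colour. Filled and open triangles give the ratio within replicate number 1 and number 2. The intervals run from 1.77 to 3.20 for Col1a2 and from -4.29 to -2.48 for Col23a1, whereas that of Col27a1 spans -4.46 to 4.47.

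The starts of a few chains are shown first. Windows of 300 bases, 250 before and 50 from the start on, were taken from RefSeq (GRCm38.p6), in which 35 of the 44 chains had an entry. The 4 windows shown were chosen with the expression values known: Col1a2 and Col3a1 as the fibrillar chains with the most counts in KO, Col4a1 for its head-to-head partner Col4a2, and Col23a1 as the tested chain whose KO libraries both lay below the WT libraries. Capitals mark the motif CCAAT, which reads ATTGG where it lies on the other strand, the motif GGGCGG, which then reads CCGCCC, and the motif TATAA, which then reads TTATA. The windows are chr6:4505368-4505667 on the plus strand for Col1a2, chr1:45311288-45311587 on the plus strand for Col3a1, chr8:11312777-11313076 on the minus strand for Col4a1 and chr11:51289670-51289969 on the plus strand for Col23a1, each written 5′ to 3′ along its gene.
Col1a2: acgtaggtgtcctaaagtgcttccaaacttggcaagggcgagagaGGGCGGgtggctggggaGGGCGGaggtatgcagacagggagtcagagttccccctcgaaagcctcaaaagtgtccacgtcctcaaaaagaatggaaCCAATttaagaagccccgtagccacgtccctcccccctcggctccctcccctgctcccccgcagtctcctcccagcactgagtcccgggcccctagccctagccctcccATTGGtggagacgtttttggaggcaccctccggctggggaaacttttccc
Col3a1: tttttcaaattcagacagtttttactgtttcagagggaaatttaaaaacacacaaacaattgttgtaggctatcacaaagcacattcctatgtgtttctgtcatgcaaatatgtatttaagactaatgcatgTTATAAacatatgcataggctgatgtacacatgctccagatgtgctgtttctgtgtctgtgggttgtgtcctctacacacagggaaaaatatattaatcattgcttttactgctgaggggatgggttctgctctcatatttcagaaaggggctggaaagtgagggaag
Col4a1: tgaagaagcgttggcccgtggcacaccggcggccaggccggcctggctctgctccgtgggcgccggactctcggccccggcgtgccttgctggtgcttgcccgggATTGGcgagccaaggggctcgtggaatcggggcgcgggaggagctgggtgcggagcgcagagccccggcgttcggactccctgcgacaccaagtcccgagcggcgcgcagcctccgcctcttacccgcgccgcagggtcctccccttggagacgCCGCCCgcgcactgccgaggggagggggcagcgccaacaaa
Col23a1: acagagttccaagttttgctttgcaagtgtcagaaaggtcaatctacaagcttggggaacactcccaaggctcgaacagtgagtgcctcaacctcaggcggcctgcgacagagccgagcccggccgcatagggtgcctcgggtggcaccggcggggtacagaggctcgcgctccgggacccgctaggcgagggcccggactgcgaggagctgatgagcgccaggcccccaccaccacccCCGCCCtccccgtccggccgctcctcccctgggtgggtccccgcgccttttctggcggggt

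The Col1a2 window held 2 matches of CCAAT and 2 of GGGCGG. The Col3a1 window held 0 of either and 2 overlapping matches of TATAA, since TTATAA reads the same on both strands, and only 37.7% of its bases were G or C, where the other 3 windows ranged from 61.0% to 74.0%. The Col4a1 window held 1 CCAAT and 1 GGGCGG, and that of Col23a1 held 1 GGGCGG alone. Over the chains with an entry, CCAAT was found for 13 of 35 (37.1%) and in 37.4% of all 32851 windows of this length. GGGCGG was found for 22 of 35 chains (62.9%) and in 35.7% of all windows, and TATAA for 7 of 35 (20.0%) and in 24.9%. A few chains had more than 1 window and were counted once, and a match describes the letters only.

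The fibrillar class carried the most collagen counts of any class in every library. Its summed level was 23.7 and 37.4 CPM in WT and 157 and 120 CPM in KO. Of its 11 chains, 8 were tested. At an unadjusted p under 0.05, 6 of these were higher in KO and 0 lower, where 4.64% of all tested genes were higher and 1.99% lower. The 6 include Col5a1, which was tested only through KO. The median log2 difference of the 8 was 2.32, where that of all tested genes was 0.04. The class made up 45.0% and 52.7% of the collagen counts of the WT libraries and 68.0% and 69.7% of those of the KO libraries. The 95% Wilson intervals of these shares, 41.7 to 48.3% and 49.8 to 55.6% in WT and 66.6 to 69.4% and 68.1 to 71.2% in KO, did not overlap between genotypes, and cover counting error only. The total they refer to includes Col23a1, a transmembrane chain with many counts in WT and few in KO. Without it, a choice made after seeing the data, the fibrillar share was 56.5% and 63.3% in WT against 68.4% and 70.0% in KO, a smaller gap in which the Wilson intervals still did not overlap.

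**Figure D3:**
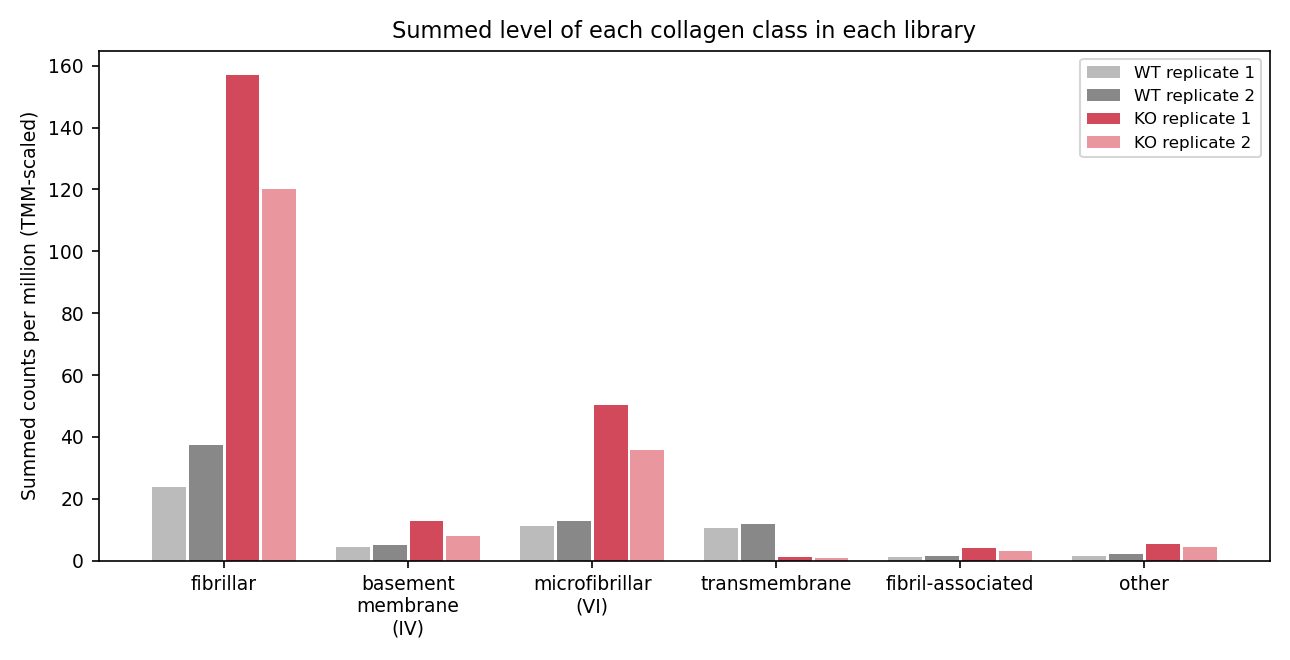
Summed level of each collagen class in each library, in CPM on the TMM-scaled library total, with 1 bar per library from 0. Fibrillar chains reach 157 and 120 CPM in KO against 23.7 and 37.4 CPM in WT, type VI chains reach 50.2 and 35.9 against 11.3 and 12.9 CPM, and transmembrane chains are at 1.34 and 0.863 CPM in KO against 10.7 and 11.9 CPM in WT.

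Col1a1 and Col1a2 encode the chains of type I collagen, the main collagen of skin, tendon and bone. Col1a1 (ENSMUSG00000001506, chromosome 11, 94936224 to 94953042 on GRCm38) had WT counts of 30 and 28 and KO counts of 277 and 164. Its log2 difference was 2.68 (SE 0.41, 95% confidence interval 1.65 to 3.71, edgeR adjusted p 0.250), with 2.99 within number 1 and 2.22 within number 2. Col1a2 (ENSMUSG00000029661, chromosome 6, 4504814 to 4541544) was the chain with the most counts in KO, with WT counts of 161 and 190 and KO counts of 1317 and 1016. It was 5.59-fold higher in KO (95% confidence interval 3.41 to 9.18, log2 difference 2.48, SE 0.28, edgeR adjusted p 0.216), with 2.83 and 2.11 within the numbers. Both chains stood in WT at levels that each KO library exceeded several-fold, and the libraries of a genotype lay close together by comparison.

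Type I collagen is most often assembled from 2 chains of Col1a1 and 1 of Col1a2, and the deposited FPKM, which divide by gene length, allow the chains to be compared. The FPKM ratio of Col1a2 to Col1a1 was 2.30 and 2.90 in WT and 2.03 and 2.65 in KO, so Col1a2 had the higher value in every library and the ratio overlapped between genotypes. This ratio depends on the length used. The file's FPKM imply 16209 bases for Col1a2 and 6934 for Col1a1, where the GENCODE transcripts with the longest coding sequence have 5348 and 5930 bases, and per kilobase of those transcripts the ratio was 5.27 to 7.52.

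Col3a1 encodes the single chain of type III collagen, which mixes with type I in soft tissues. It had 106 and 146 counts in WT but 781 and 571 in KO, a log2 difference of 2.17 (SE 0.32, 95% confidence interval 1.37 to 2.98, edgeR adjusted p 0.227). Its ratios within the numbers were 2.68 and 1.66, and its exons overlap those of 1 other annotated gene. Col5a2, a chain of type V collagen that helps to start fibrils, is its neighbour on chromosome 1 at a gap of 24.6 kb on the opposite strand, and had WT counts of 51 and 39 and KO counts of 320 and 268 (log2 difference 2.46, SE 0.31, edgeR adjusted p 0.216). Its ratios within the numbers were 2.44 and 2.46, the closest pair among the chains with a confidence interval above 0. Col5a1, its partner in the type V trimer, had 7 and 23 counts in WT but 86 and 75 in KO, with a log2 difference of 2.16 (SE 0.61, edgeR adjusted p 0.463) and ratios of 3.33 and 1.38 within the numbers. Without WT replicate 1 the difference was 1.54 and without WT replicate 2 it was 3.24. The WT libraries thus differed more for Col5a1 than for Col5a2, and exons of Col5a1 overlap 2 other annotated genes, so its counts may be shared.

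Col24a1, a minor fibrillar collagen known from developing bone, had WT counts of 13 and 15 and KO counts of 132 and 127. It had the highest log2 difference of the tested chains at 2.95 (SE 0.34, 95% confidence interval 2.08 to 3.82, edgeR adjusted p 0.216), or 7.71-fold, with 3.09 and 2.74 within the numbers. Its replicates lay close together, unlike those of Col27a1 and Col11a2, fibrillar chains best known from cartilage. Col27a1 had WT counts of 0 and 79 and KO counts of 6 and 91, so it followed the replicate number, and its pooled log2 difference was 0.00 (SE 1.76) with 3.50 and -0.10 within the numbers. Col11a2 had WT counts of 14 and 68 and KO counts of 9 and 53, again with the higher value in number 2 of both genotypes, and a log2 difference of -0.68 (SE 1.03, within the numbers -0.81 and -0.66). Of the untested fibrillar chains, Col5a3 had 1 to 8 counts per library, Col11a1 had 1 count in KO replicate 1 only, and Col2a1, the main collagen of cartilage, had 0 in all 4.

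The basement membrane class stood at a summed level of 4.37 and 4.95 CPM in WT and 12.8 and 8.07 CPM in KO. Of its 4 tested chains 1 was higher and 0 lower at an unadjusted p under 0.05, where 4.64% of all tested genes were higher and 1.99% lower. The median log2 difference of the 4 was 1.22, where that of all tested genes was 0.04. Col4a1 and Col4a2 encode the chains of the common type IV trimer and lie head to head on chromosome 8, where their annotated ends overlap by 22 bp and their promoter windows by 78 bp, so that a few reads at the starts may be shared. Col4a1 had 19 and 40 counts in WT but 79 and 39 in KO (log2 difference 0.75, SE 0.58, 95% confidence interval -0.72 to 2.23), and its ratio was 1.83 within number 1 and -0.34 within number 2. Col4a2 had WT counts of 20 and 15 and KO counts of 44 and 22 (log2 difference 0.67, SE 0.53, 95% confidence interval -0.68 to 2.02), with 0.92 and 0.23 within the numbers. On the CPM scale the libraries of the genotypes overlapped for both chains, and both intervals included 0. KO replicate 1 carried most of either difference, since without it the values were 0.11 for Col4a1 and 0.04 for Col4a2. The FPKM ratio of Col4a1 to Col4a2 ranged from 0.925 to 2.60 in WT and was 1.75 and 1.73 in KO.

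Col4a5 and Col4a6 form the corresponding pair on the X chromosome, with 1.31 kb between their starts, and encode chains of basement membranes such as those of kidney and smooth muscle. Col4a5 had 22 and 21 counts in WT but 100 and 65 in KO, a log2 difference of 1.69 (SE 0.41, 95% confidence interval 0.66 to 2.72, edgeR adjusted p 0.355) with 1.96 and 1.3 within the numbers, and was the type IV chain whose interval excluded 0. Col4a6 had WT counts of 10 and 2 and KO counts of 16 and 32 (log2 difference 1.72, SE 0.80, 95% confidence interval -0.32 to 3.76). Its ratios within the numbers were 0.45 and 3.40, and the WT libraries set its size, with 3.24 without WT replicate 1 and 0.97 without WT replicate 2. Col4a3 and Col4a4, which complete the trimer of the kidney filter together with Col4a5, had at most 1 count in any library.

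Type VI chains differed by similar amounts. All 4 tested chains were higher in KO at an unadjusted p under 0.05, where 4.64% of all tested genes were. Of the 4, Col6a5 was tested only through KO, and the other 3 had 10 or more counts in every library. The log2 differences lay between 1.81 and 1.97, with a median of 1.86. Col6a1, Col6a2 and Col6a3 encode the chains of the standard type VI trimer, and Col6a1 and Col6a2 lie on the same strand of chromosome 10 at a gap of 85.2 kb. Col6a1 (ENSMUSG00000001119, chromosome 10, 76708792 to 76726168) had 99 and 131 counts in WT but 543 and 417 in KO, and was 3.51-fold higher (95% confidence interval 2.06 to 5.99, log2 difference 1.81, SE 0.30, edgeR adjusted p 0.250), with 2.25 and 1.36 within the numbers. Col6a2 had WT counts of 52 and 49 and KO counts of 225 and 197, the same log2 difference of 1.81 (SE 0.29, edgeR adjusted p 0.250), with 1.90 and 1.69 within the numbers.

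Col6a3 on chromosome 1 had 25 and 15 counts in WT but 118 and 68 in KO, a log2 difference of 1.97 (SE 0.49, edgeR adjusted p 0.374, within the numbers 2.02 and 1.84). Col6a5, a chain that can take the place of Col6a3 in the trimer, had WT counts of 7 and 9 and KO counts of 48 and 24 (log2 difference 1.91, SE 0.58, edgeR adjusted p 0.521, within the numbers 2.49 and 1.06). The groups did not overlap for any of these 4 chains. On the FPKM scale Col6a1 stood above Col6a2 in every library, by 3.55 and 4.98 times in WT and 4.50 and 3.94 times in KO, and Col6a2 stood above Col6a3 by 3.37 and 5.29 times in WT and 3.09 and 4.69 times in KO. These ratios too depend on the length. The file implies 8440 bases for Col6a2, where its GENCODE transcript with the longest coding sequence has 3949, and per kilobase of such transcripts Col6a1 stood 1.83 to 2.58 times above Col6a2 and Col6a2 stood 4.88 to 8.36 times above Col6a3. On either scale both ratios overlapped between genotypes. Type VI took 21.4% and 18.1% of the collagen counts in WT, compared with 21.8% and 20.8% of those in KO. The share of WT replicate 1 lay between those of the KO libraries, and the 95% Wilson interval of WT replicate 2 ended at 20.5%, within that of KO replicate 2, which began at 19.5%, and below that of KO replicate 1, which began at 20.6%. Without Col23a1 in the total, type VI took 26.9% and 21.8% in WT and 21.9% and 20.9% in KO, where the interval of WT replicate 1 lay above those of both KO libraries and that of WT replicate 2 overlapped them. Col6a4 had 3 and 2 counts in KO and 0 in WT, and Col6a6 had 1 count in all.

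The transmembrane class went the other way through 1 gene. Col23a1 (ENSMUSG00000063564, chromosome 11, 51289920 to 51583918, plus strand) encodes a collagen with a single membrane-spanning stretch whose outer part can be shed from the cell surface. It had 174 and 189 counts in WT but 24 and 17 in KO, so that it was the chain with the most counts in WT replicate 1 and the second in WT replicate 2, behind Col1a2. Its log2 difference was -3.39 (SE 0.36, 95% confidence interval -4.29 to -2.48, edgeR adjusted p 0.216), or 10.5-fold higher in WT, with -3.03 within number 1 and -3.74 within number 2. It made up 20.4% and 16.7% of the collagen counts in WT and 0.557% and 0.499% in KO. By unadjusted p it ranked 7 among all 12418 genes. Each WT library held over 7 times the counts of either KO library.

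Col23a1 lies on the chromosome of the deleted gene, with 3.89 Mb between it and G3bp1. Within 5 Mb of G3bp1, 101 genes were tested, of which 8 were higher and 8 lower in KO at an unadjusted p under 0.05, which is 7.92% in each direction, where 4.64% of all tested genes were higher and 1.99% lower. Their median log2 difference was -0.06, and Col23a1 ranked 3 by p among them. The part of this linkage in the difference was not tested. Of the other transmembrane chains, Col13a1 had 1 count in KO replicate 1, and Col17a1 and Col25a1 had 0 in every library.

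Fibril-associated chains, which sit on the surface of fibrils, were low throughout, with a summed level of 1.05 and 1.57 CPM in WT and 4.13 and 3.15 CPM in KO. Col12a1, which binds to type I fibrils in tendon and ligament, had WT counts of 3 and 7 and KO counts of 32 and 19, a log2 difference of 2.08 (SE 0.65, 95% confidence interval 0.42 to 3.74, edgeR adjusted p 0.565). It was tested only through KO. Its ratios within the numbers were 3.01 and 1.07, and with 1 library left out the difference ranged from 1.6 without WT replicate 1 to 2.78 without WT replicate 2. Col16a1 had 8 and 7 counts in WT but 23 and 14 in KO (log2 difference 1.05, SE 0.55, 95% confidence interval -0.35 to 2.44, within the numbers 1.27 and 0.65), and 0.60 without KO replicate 1. Col14a1, Col20a1 and Col9a3 were too low to be tested but lay above both WT libraries in both KO libraries, with 6 and 8 counts in KO against 0 and 1 in WT for Col14a1. With Col6a4 these were 4 of the 14 chains that had counts and were not tested, where 16.2% of all 5573 such genes lay above both WT libraries in both KO libraries, and none of the 14 exceeded 32 counts over the 4 libraries together.

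Among the other chains, Col18a1 and Col15a1 encode collagens of the basement membrane zone, and the end of the Col18a1 protein is released as endostatin. Col18a1 had WT counts of 13 and 22 and KO counts of 64 and 65, a log2 difference of 1.62 (SE 0.42, 95% confidence interval 0.54 to 2.70, edgeR adjusted p 0.408) with 2.06 and 1.24 within the numbers. Col15a1 had 8 and 13 counts in WT but 26 and 22 in KO (log2 difference 0.93, SE 0.50, 95% confidence interval -0.33 to 2.20, within the numbers 1.44 and 0.43). Col18a1 and Col15a1 lay above the WT libraries in both KO libraries, although the interval of Col15a1 included 0 and its exons overlap those of 1 other annotated gene. The network-forming chains Col8a1 and Col8a2 had 4 and 3 counts in KO replicate 1 and 0 elsewhere, Col7a1 of the anchoring fibrils had 2 and 1 counts in WT and 0 in KO, and Col10a1 of growth plate cartilage had 0 in every library.

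Genes that fold, cut and cross-link collagen were examined next. The counts of this and the following lists stand against 4.64% of all tested genes that were higher and 1.99% that were lower at an unadjusted p under 0.05. As among the chains, some genes of these lists reached 10 counts in both KO libraries and not in both WT libraries, and so could be tested only through the group in which they were high. Of 38 genes of collagen synthesis and processing, 27 were tested, 10 of them were higher in KO at an unadjusted p under 0.05 and 0 were lower, and the median log2 difference was 0.36, or 0.52 within number 1 and 0.17 within number 2. Of the 27 genes, 3 were tested only through KO, and 2 of these were among the 10, Loxl1 being 1 of them. Sparc, a collagen-binding matrix protein, had WT counts of 444 and 429 and KO counts of 2458 and 2393 (log2 difference 2.22, SE 0.23). Serpinh1, the collagen-specific chaperone HSP47, had 300 and 284 counts in WT but 1421 and 1425 in KO (2.03, SE 0.22). Fkbp10, another chaperone of procollagen, had a log2 difference of 2.68 (SE 0.34), and Loxl1, a cross-linking enzyme, of 3.34 (SE 0.51). The exact test called 7 of the 27 genes, all higher, where it called 1.55% of all genes higher. The other 17 tested genes had an unadjusted p of 0.05 or more.

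Of 16 collagen receptors, 10 were tested, 3 were higher at an unadjusted p under 0.05 and 0 lower, with a median log2 difference of 0.20. The 3 were Ddr1 and Ddr2, receptor tyrosine kinases that collagen activates, with log2 differences of 2.25 (SE 0.36) and 2.02 (SE 0.34), and Mrc2, an endocytic receptor for collagen, with 2.48 (SE 0.51). Mrc2 had WT counts of 4 and 5 and KO counts of 34 and 27 and was tested only through KO. Of 17 genes of collagen breakdown, 12 were tested, with 1 higher, 0 lower and a median of -0.11, a count close to the share over all genes. The 1 was Timp3, an inhibitor of matrix metalloproteinases, with WT counts of 63 and 79 and KO counts of 321 and 263 (1.79, SE 0.30). The cathepsins Ctsk, Ctsl and Ctss, proteases of the macrophage lysosome, had log2 differences of -0.38 (SE 0.22), -0.42 (SE 0.22) and -0.43 (SE 0.20).

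Transforming growth factor beta is the best-known inducer of collagen genes. All 16 genes of its pathway list were tested, 4 were higher at an unadjusted p under 0.05 and 0 lower, and the median was 0.50. The 4 were Ltbp2 (log2 difference 2.59, SE 0.47), Ccn2 (2.53, SE 0.55), Tgfb3 (2.38, SE 0.67) and Tgfbr3 (1.13, SE 0.35). Ccn2, a target of the pathway, had WT counts of 4 and 5 and KO counts of 38 and 25, and Ltbp2 had 8 and 17 counts in WT but 89 and 92 in KO, so both were tested only through KO.

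Markers of other cell types were read beside the collagen chains, since cultures of marrow can hold stromal cells. Of 26 markers of mesenchymal stromal cells or fibroblasts, which hold no collagens, 17 were tested, 13 were higher at an unadjusted p under 0.05 and 0 lower, and the median log2 difference was 1.71, where it was 1.81 over the collagen chains. Within the numbers the medians of the markers were 1.99 and 1.48. Of the 17, 7 were tested only through KO, 4 of them among the 13, and 10 had 10 or more counts in every library, of which 9 were higher with a median of 1.76. Their summed level was 153 and 215 CPM in WT and 409 and 426 CPM in KO. Pdgfra, a receptor of stromal cells, had 229 and 321 counts in WT but 1320 and 1448 in KO (log2 difference 2.07, SE 0.28), the matrix proteoglycan Dcn had 658 and 666 against 2224 and 2504 (1.58, SE 0.22), and Fbn1 had a log2 difference of 2.18 (SE 0.31) and Cxcl12 of 2.66 (SE 0.36). Fstl1, the most abundant marker, had 0.43 (SE 0.32). Some markers of the list did not rise. Lepr, which was not tested, had 3 and 0 counts in WT and 0 in both KO libraries, and the untested Fap and Mfap5 had at most 5 counts in any library. Meox1 was at 0 in every library, and 4 and 7 of the 26 markers were at 0 in the WT libraries and 2 and 4 in the KO libraries. Loxl1 is a member of both this list and the synthesis list. The part of such cells in the collagen difference was not tested.

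Of 10 markers of smooth muscle or pericytes, 4 were tested, 3 of them were higher at an unadjusted p under 0.05, and the median was 1.79. Acta2, smooth muscle actin, had WT counts of 84 and 79 and KO counts of 475 and 561 (log2 difference 2.41, SE 0.24), and Des had 2.03 (SE 0.28). Their summed level was 11.9 and 13.0 CPM in WT and 50.5 and 56.9 CPM in KO, and 2 to 5 of the 10 were at 0 in each library. The 14 macrophage markers had a median of -0.18, with 1 higher and 2 lower, Itgam at 0.82 (SE 0.31), C1qb at -0.64 (SE 0.23) and C1qc at -0.63 (SE 0.23), and summed to 43856 and 40061 CPM in WT and 31668 and 38486 CPM in KO. The plot of pathway and marker lists sets these values beside the collagen chains.

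**Figure D4:**
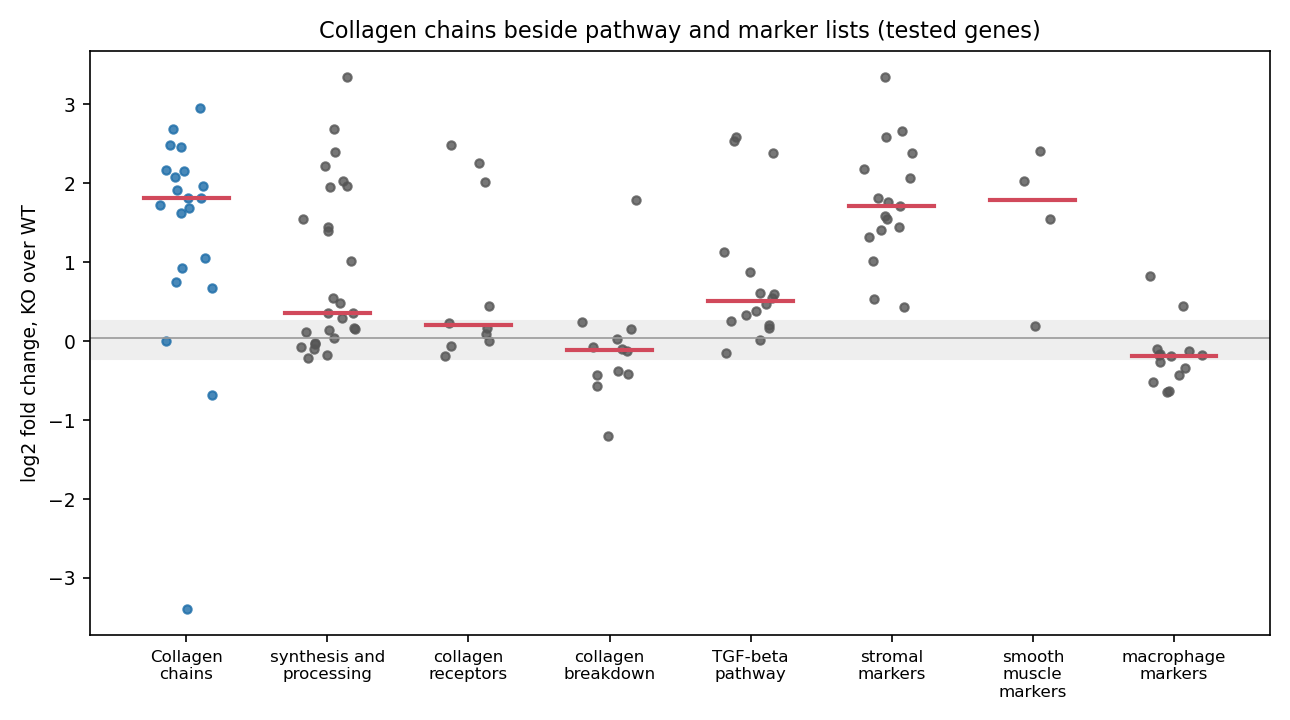
Log2 difference of KO over WT for the tested genes of the collagen chains and of 7 lists, 1 point per gene, with the median of each as a red bar. The grey band is the interquartile range of all 12418 tested genes (-0.23 to 0.26) and the grey line their median (0.04). The medians are 1.81 for collagen chains, 1.71 for stromal markers and 1.79 for smooth muscle markers, and between -0.18 and 0.50 for the other lists.

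Markers of other cells that make collagen were mostly too low to be tested. Of 9 osteoblast markers 2 were tested, with 0 at an unadjusted p under 0.05, and Runx2 had a log2 difference of 0.72 (SE 0.51). Alpl, an untested marker of this list, had 0 and 1 counts in WT but 13 and 4 in KO. Of 7 chondrocyte markers only Sox9 was tested, with 1.20 (SE 0.54), and Acan was at 0 in every library. Of 5 adipocyte markers only Fabp4, which macrophages also express, was above 0 in any library, with -0.77 (SE 0.62). The 4 tested endothelial markers had a median of -0.08 with 0 at an unadjusted p under 0.05, and the 5 tested epithelial markers had a median of -0.31 with Krt18 lower (-1.50, SE 0.48). None of the 4 Schwann cell markers was tested, and Sox10 was at 0 in every library.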

How the data were processed

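Total RNA was sequenced in 2 WT and 2 KO macrophage libraries. Per the study's methods and the submitters' processing notes, the authors filtered reads with Seqtk, aligned them with HISAT2 2.0.4 and counted fragments per gene with StringTie 1.3.3b. The deposited raw counts were whole numbers for 34745 genes. The deposited FPKM carried only the library total and a gene length, as tested on 10564 genes, where the implied length differed between libraries by at most 0.00398%. The notes name another mouse build, but 27776 of the 34344 identifiers in GENCODE M21 matched it in start and end on GRCm38, as did 42 of the 44 chains, so positions are on GRCm38. The use of strand in counting is not stated, and exons of 13 chains overlapped another gene.

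The tests used edgeR 4.0.16 under R 4.3.3 (filterByExpr, minimum count 10, minimum total 15; TMM; glmQLFit and glmQLFTest with genotype as the only term, two-sided, Benjamini-Hochberg over 12418 genes). The limits of a call, taken from the study's methods, were an adjusted p below 0.05 with a log2 fold change beyond 1 in either direction. TMM factors were 0.955 and 0.942 in WT and 1.11 and 0.997 in KO. Standard errors and 95% intervals came from the F statistic. Ratios within a number had 0.5 counts added. Alternatives used DESeq2 1.42.0, the edgeR exact test, limma 3.58.1 on log2 FPKM, other filters and scalings, a trend with gene length, a term for the replicate number, and each library left out. The code was tested on simulated data.

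All chains could be named. Full statistics were set for the 16 tested chains with the lowest p, for Col1a1, Col1a2, Col4a1, Col4a2, Col6a1, Col6a2 and Col6a3, and for chains called in any alternative. Of other lists, up to 4 tested genes with the lowest p and the most abundant marker were named. Other genes named among the untested were chosen after their values were seen. The members and lists were chosen with earlier results of these data known.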

Additional observations from a re-analysis of the deposited data

How the results depend on the processing

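Each of the 18 chains with full statistics kept the sign of its log2 fold change in every alternative run for it. With no minimum fold change, no filter, DESeq2 size factors, a filter at a mean CPM of 1, a length trend removed, limma on log2(FPKM + 1) or any 1 library left out, 0 chains and 0 genes were called. In the last case a lone library was assumed to vary like the others. The exact test called 229 genes and 8 chains and the DESeq2 Wald test 181 genes and 8 chains. Limma on log2(FPKM + 0.1) called 2 genes and 0 chains. Why the tests differ was not tested. The median over the tested chains was 0.31 with limma on log2(FPKM + 1) and 1.23 on log2(FPKM + 0.1), where the pseudocount is as large as many of the levels, and between 1.56 and 2.01 with a library left out. At an unadjusted p under 0.05 there were 10 to 15 chains with a library left out, where 372 to 1318 of the 12418 tested genes passed in the same fits. The log2 ratio of summed counts was 1.47 without Col1a2, 1.88 without TMM factors, 1.99 without Col23a1 (chosen after seeing the data) and 1.49 to 1.94 with a library left out.

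Whether a replicate number stands for a shared batch is not in the labels, and 2 pairs cannot show it. Libraries of the same number deviated together across genes (correlation 0.7099). The replicate block gave calls for 664 genes (5.35%) and 14 chains, 13 of the chains higher, and the coefficient of variation between replicates was 0.1692 against 0.3427 without it. With the replicate block and the length trend removed, 606 genes and 14 chains were called. The protein features planned were not run. Chains with under 10 counts in every library were not tested at this depth.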
